A study of Sus scrofa with 9 samples.

Results

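CCK, the gene of the peptide hormone cholecystokinin, was followed through infarcted pig hearts by global run-on sequencing (GRO-seq), which counts RNA while polymerases are still making it. It occupied 1 of the 4882 annotated positions in the deposited table, found through its RefSeq accession NM_214237, and it was chosen for its large fall in ischemic tissue. The hearts came from 3 female farm pigs in which a coil had been placed through a catheter in the distal left anterior descending artery, and myocardium was taken 24 h later. From every animal 3 zones were sampled, labelled healthy, border zone and ischemic, which makes 3 libraries per group. The healthy samples therefore came from hearts that also carried an infarct, and samples from animals without an infarct were not analysed here. All samples were minced, digested with collagenase and filtered before nuclei were taken for the run-on, so the values describe nuclei that survived that procedure. Levels are given in RPKM, reads per kilobase of annotated span, scaled to the size of the library.

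Cholecystokinin is best known from the gut and the brain. Endocrine cells of the upper intestine release it after a meal, it makes the gallbladder contract and the pancreas secrete, and neurons use it as a transmitter. The gene encodes a precursor that prohormone convertases cut, carboxypeptidases trim, tyrosylprotein sulfotransferases sulfate on tyrosine and an amidating enzyme finishes. The mature peptides act on the receptors CCKAR and CCKBR, which couple mainly to the G protein Gq and raise calcium in the cell. Heart muscle cells are also known to transcribe the gene, and precursor fragments circulate in blood.

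The position lay on the minus strand of chromosome 13, from 28610211 to 28615330 in the pig build susScr3, as the table gives it. Its span measured 5119 bp, of which the exons covered 673 bp, or 13.1%. Most of the counted stretch was therefore intron, as suits a method that reads unspliced RNA, and nothing in the values separates exon reads from intron reads.

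The healthy libraries of pigs 1, 2 and 3 read CCK at 11.1, 15.3 and 5.08 RPKM, from 155, 268 and 170 reads. The border zone libraries of the same pigs read 3.25, 8.34 and 1.61 RPKM, from 59, 299 and 18 reads. The ischemic libraries read 0, 1.71 and 0 RPKM, from 0, 10 and 0 reads. Every ischemic value lay below every healthy value, whereas the border zone overlapped both groups, since border zone 2 exceeded healthy 3 and ischemic 2 slightly exceeded border zone 3. Group means were 10.5 ± 5.13 RPKM in healthy tissue, 4.40 ± 3.51 in the border zone and 0.571 ± 0.989 in ischemic tissue (SD, n = 3 each). The order healthy, border zone, ischemic held within each of the 3 pigs. In tissue digests, fewer cells of a type and less RNA per cell cannot be told apart.

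**Figure D1:**
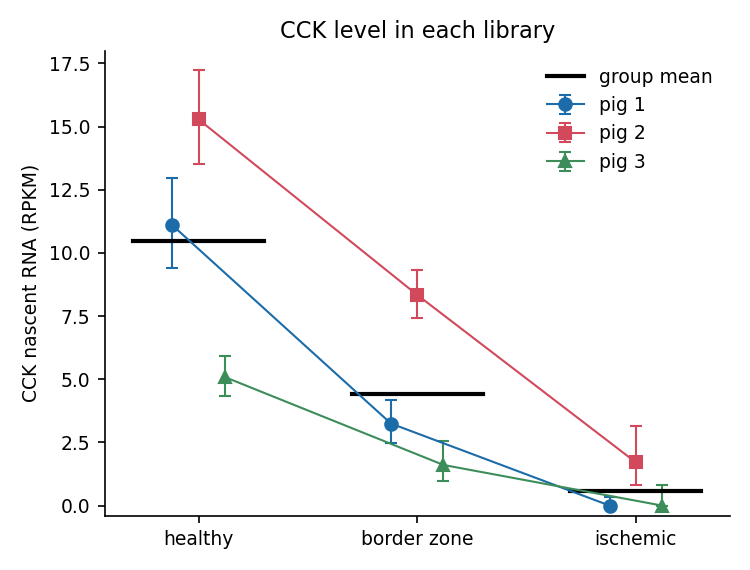
CCK level in RPKM on a linear axis for each of the 9 libraries, grouped as healthy, border zone and ischemic, with lines joining the samples of a pig, vertical bars giving the 95% exact Poisson interval of the read count and black lines at the group means. Each of the 3 pigs steps down from healthy to border zone to ischemic tissue, and pig 2 lies highest in all 3 groups.

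CCK ranked among the more strongly transcribed positions of the healthy samples. The gene exceeded 94.3%, 97.1% and 89.3% of the 2384 tested positions in healthy libraries 1, 2 and 3, where a tested position averaged at least 0.5 RPKM over the 9 libraries. In the border zone it exceeded 77.0%, 92.5% and 57.7% of them. In ischemic library 2, the only ischemic library with CCK reads, it exceeded 61.9%.

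Counting error set limits on these levels. The 95% exact Poisson intervals ran from 9.41 to 13.0 RPKM in healthy 1, from 13.5 to 17.2 in healthy 2 and from 4.35 to 5.91 in healthy 3. In the border zone they ran from 2.47 to 4.19, from 7.42 to 9.34 and from 0.952 to 2.54 RPKM. The interval of ischemic 2, from 0.821 to 3.15 RPKM, overlapped those of its neighbours in the order of levels, border zone 3 below it and border zone 1 above it. The 0 reads of ischemic 1 and ischemic 3 allow up to 0.275 and 0.663 RPKM, taking 3 reads as the limit of a count of 0. At the healthy level of the same pig, and at their own depth, the 3 ischemic libraries would have held 121, 89.2 and 23.0 CCK reads in place of 0, 10 and 0. These intervals cover counting error only and treat each read as an independent molecule. The reads carry no molecular identifiers. Small counts were multiples of 3 in up to 53.2% of cases (ischemic 3), against 33.3% for an even spread. The intervals and limits may therefore be too narrow.

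The contrast of ischemic with healthy tissue was the one on which CCK was chosen, and it is described here with no test. In pig 1 CCK was at least 40.4-fold lower in ischemic than in healthy tissue. Ratios given as at least a value, here and below, set the level of the other zone against the limit of 3 reads. They leave out the counting error of the other zone and are not 95% intervals. Pig 2 retained 11.2% of its healthy level, an 8.92-fold difference with a 95% counting interval of 4.78 to 18.8. Pig 3, whose ischemic library was the shallowest of the 9, gave a difference of at least 7.67-fold. The 593 healthy and 10 ischemic reads, pooled over pigs, differed 19.4-fold after scaling to depth (95% counting interval 10.5 to 40.7). That pooled ratio became at least 47.0-fold without ischemic 2 and 9.46-fold (5.11 to 19.8) without ischemic 1.

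Against the border zone the ischemic level was lower by at least 11.8-fold in pig 1, by 4.87-fold (2.61 to 10.3) in pig 2 and by at least 2.42-fold in pig 3. The pooled ratio was 12.3-fold (6.60 to 25.8). It moved to at least 29.7-fold without ischemic 2, to 5.97-fold without ischemic 1 and to 5.58-fold without border zone 2. This contrast uses the same ischemic libraries and was not tested either. Of all tested positions 1.13% were called between these 2 groups.

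Across all tested positions, ranked by the difference that limma fitted between ischemic and healthy tissue on log2(RPKM + 0.1), CCK had the eighth most negative value of 2384. The fitted difference was -5.20 ± 1.15 (SE), and the median over all tested positions was 0.21, with 27.6% of them called in either direction. Because 2 ischemic libraries stood at 0, the fitted value depends on the pseudocount of 0.1 RPKM and is no bound. The 7 positions with more negative values were short pieces, with spans of 79 to 179 bp and 7 to 141 healthy reads against 593 for CCK. They included MIR1 and MIR208B, microRNA genes of muscle, MIR29C, and a piece of the sarcomere gene MYOZ2. A piece of GRB10 at -5.23 stood just before CCK and a piece of KLF12 at -5.19, spanning 151 bp, just after it.

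Among the 2177 tested positions with a span of at least 1000 bp, a limit set after seeing the ranking, CCK had the most negative fitted difference. MYOCD, which encodes the muscle coactivator myocardin, followed at -4.02. SMYD1, a methyltransferase of striated muscle, stood at -3.84, MLPH at -3.80 and COX7A1, the muscle form of a cytochrome oxidase subunit, at -3.65. The place of CCK among all tested positions ran from 1 with limma-voom on the recovered reads to 18 without healthy 2. It was 3 without ischemic 2 and 14 without ischemic 1 or without ischemic 3.

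**Figure D2:**
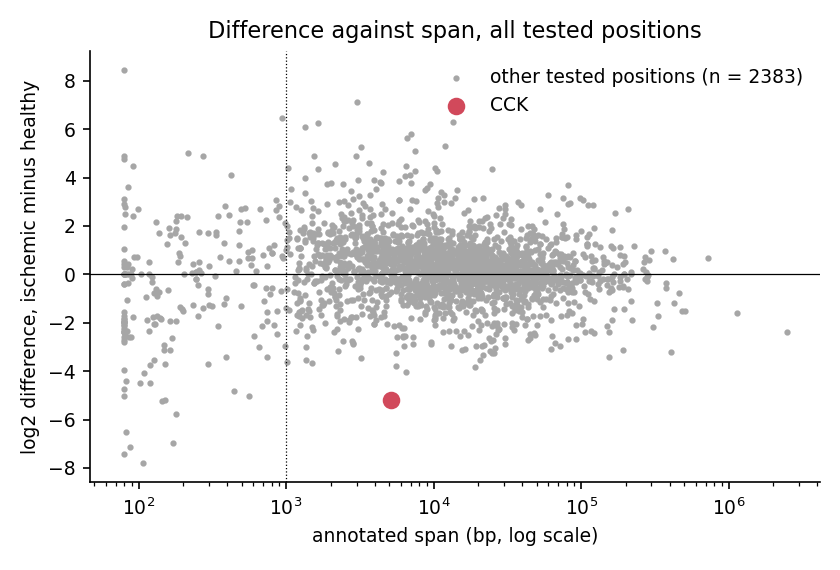
Fitted ischemic minus healthy difference, log2(RPKM + 0.1), against the annotated span in bp on a log axis, for the 2384 tested positions, with CCK marked. The 7 positions below CCK all span 179 bp or less, and CCK, at 5119 bp, lies lowest among positions of 1000 bp or more.

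The contrast of border zone with healthy tissue did not choose the gene, although it shares the healthy libraries with the contrast that did. CCK was lower in the border zone in 3 of 3 pigs. It was 3.42-fold lower in pig 1 (95% counting interval 2.52 to 4.69), 1.83-fold in pig 2 (1.55 to 2.17) and 3.16-fold in pig 3 (1.94 to 5.47), so the border zone kept 29.3%, 54.6% and 31.6% of the healthy level. The fitted log2 difference was -1.40 ± 1.15 (SE), with a 95% interval from -4.07 to 1.26, and it did not pass the test (limma, unadjusted p = 0.259, Benjamini-Hochberg adjusted p = 0.551 over 2384 positions). An exact two-sided permutation test on the 6 library values gave p = 0.2, where 3 libraries against 3 cannot go below 0.1. The SE of 1.15 draws on the spread of all 3 groups, including the ischemic libraries with no CCK read. With only the healthy and border zone libraries fitted, the SE was 0.67 (limma adjusted p = 0.239). With the pig as a block the SE was 0.68 and the limma adjusted p was 0.266. The 95% interval of the main fit holds no difference as well as a difference larger than the fitted one. Of all tested positions 6.0% were called in this comparison.

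The pooled border zone and healthy reads, 376 and 593, differed only 1.58-fold (1.39 to 1.81) because border zone 2 and healthy 3 were the deepest libraries of their groups. Without border zone 2 the pooled ratio was 3.48-fold.

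The 3 pigs also differed among themselves. Pig 2 was highest, pig 1 intermediate and pig 3 lowest in healthy tissue, and the same order recurred in the border zone. Among all tested positions 12.2% had this order in healthy tissue, 17.2% had it in the border zone and 2.73%, or 65 of 2384, had it in both. The muscle genes ACTC1 and ACTN2 and the endothelin gene EDN1 were among those 65. Most of the 13 tested cardiomyocyte markers, PLN, MYL2 and TNNC1 included, were not. Whether the order recurs more often than unrelated libraries would give was not tested. Pig 2 was also the one with CCK reads in ischemic tissue.

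Most markers of heart muscle were lower in ischemic tissue too, with smaller fitted differences than CCK. Of 23 cardiomyocyte markers listed, 15 were in the table, 14 had reads (CKM, muscle creatine kinase, had none) and 13 were tested. In ischemic against healthy tissue 8 of the 13 fell and 0 rose (limma, adjusted p under 0.05; 10 lower and 0 higher at an unadjusted p under 0.05, 11 lower and 0 higher with limma-voom), where 9.1% of all tested positions were called lower and 18.5% higher. The count of 8 became 11 without ischemic 2 and 4 or 5 without any of the other libraries. Their median log2 difference was -1.76, from -2.97 for CSRP3, a Z-disc protein, to -0.52 for the filament gene DES, which did not pass. ACTN2, the alpha-actinin of the Z-disc, fell from 24.3, 24.6 and 16.8 RPKM in healthy libraries to 1.86, 4.47 and 2.27 in ischemic ones (log2 difference -2.97 ± 0.36, adjusted p = 0.00141). PLN, the calcium pump regulator phospholamban, fell from 52.9, 40.2 and 55.2 RPKM to 4.06, 14.6 and 4.85 (-2.87 ± 0.46, adjusted p = 0.00378). Both genes were still read in every ischemic library, including the pair with no CCK read.

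The fitted CCK difference was more negative than that of each of the 13 markers, in the fit reported and in each of the 18 other fits run. In pooled reads the markers were 1.55-fold (DES) to 8.39-fold (CSRP3) lower in ischemic tissue, with a median of 2.39-fold, against 19.4-fold for CCK. Within pig 1 the markers' ratios ranged from 2.05-fold to 23.9-fold (MYL2), all under the CCK bound of 40.4-fold. Within pig 2 they ranged from 0.887-fold (FABP3) to 5.76-fold (CSRP3), all under 8.92-fold. The 95% counting interval of that CCK ratio, 4.78 to 18.8, includes the values of CSRP3 and ACTN2 (5.51-fold). Within pig 3 the bound of 7.67-fold for CCK exceeded 9 of 13 markers, and PLN reached 11.4-fold. The difference between CCK and the markers was not tested, since the gene was chosen on this contrast.

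**Figure D3:**
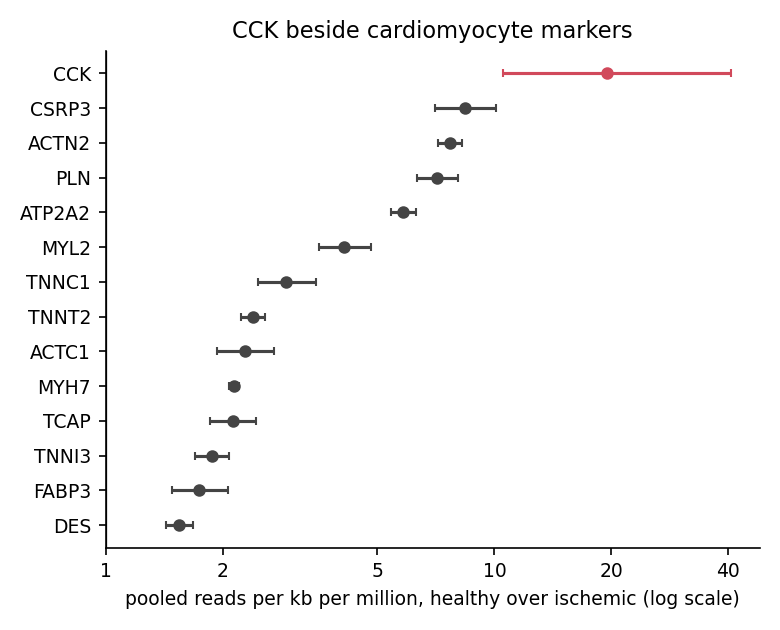
Healthy over ischemic ratio of the reads pooled over 3 pigs, on a log axis, for CCK and the 13 tested cardiomyocyte markers, with horizontal bars giving the 95% counting interval. CCK has the highest ratio, 19.4, with an interval from 10.5 to 40.7, and CSRP3 follows at 8.39.

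Summed over the markers, heart muscle read 824, 533 and 493 RPKM in the healthy libraries, 286, 409 and 263 in the border zone and 209, 345 and 145 in ischemic tissue. Ischemic 2, the one with CCK reads, had the highest muscle sum of its group. CCK amounted to 1.35%, 2.87% and 1.03% of that sum in healthy tissue, 1.14%, 2.04% and 0.612% in the border zone, and 0%, 0.497% and 0% in ischemic tissue. A CCK level that kept its healthy share of the sum in each pig would have given 30.7, 57.7 and 6.75 ischemic reads, where 0, 10 and 0 were counted. In the border zone it would have given 69.8, 421 and 30.3 reads, where 59, 299 and 18 were counted. This scaling was added after the values had been seen. The reads it gives depend on the markers summed, since single markers differed widely. In pig 2 their healthy over ischemic ratios ran from 0.887 (FABP3) to 5.76 (CSRP3). For the border zone 0 of the 13 markers passed the limma test in either direction (7 lower at an unadjusted p under 0.05, 6 lower with limma-voom). Of all tested positions 0.21% were called lower and 5.79% higher there, so a count of 0 is near those shares. The median log2 difference of the markers was -0.95, beside 0.22 over all tested positions.

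Markers of other cell types also differed between the zones. Macrophage markers summed to 0.757 to 1.61 RPKM in healthy libraries, 6.07 to 13.5 in the border zone and 16.6 to 21.8 in ischemic ones, although CD163 and FCGR3A had no read. Neutrophil markers ran from 0.0813 to 0.323, from 5.28 to 10.8 and from 14.1 to 30.2 RPKM. Of 11 tested leukocyte markers 7 rose in ischemic tissue (limma), beside 18.5% of all tested positions, and 3 did so with a filter of 2 RPKM. Endothelial markers summed to 6.58 to 8.84 RPKM in healthy and 14.2 to 32.2 in ischemic libraries, and fibroblast markers to 8.46 to 11.6 and 12.2 to 16.7 RPKM. The fibroblast markers did not move together. COL1A2 and COL3A1 passed as higher in ischemic tissue, calls that both were lost with quantile normalization. POSTN was higher and did not pass, whereas DCN and LUM stood at log2 differences of -0.57 and -0.63 and did not pass either. Ribosomal RNA positions took 4.95% to 15.3% of the table's reads in healthy libraries and 13.8% to 28.8% in ischemic ones, and total depth ran from 2730083 to 6531658 reads in healthy and from 883656 to 2134087 in ischemic libraries. The part of these differences in the CCK values was not tested.

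Markers of neurons and neuroendocrine cells, the classical sources of the hormone elsewhere, were at or near 0. Of 15 such markers 6 were in the table, their summed level lay between 0.0211 and 0.670 RPKM in all 9 libraries, and CHAT and NEFL had no read. The secretory granule gene CHGA, chromogranin A, had 2 reads in the healthy libraries together and CHGB had none there. The atrial markers NPPA, SLN and NR2F2 summed to 1.72 to 3.75 RPKM in the healthy libraries, which is low beside the muscle sum.

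The 5 tested positions whose levels over the 9 libraries resembled CCK most were RRAGD, ITGB6, SLC2A4, ALAS1 and NDUFB8. Pearson's r on log2(RPKM + 0.1) was 0.971, 0.968, 0.967, 0.965 and 0.964, and Spearman's rho was 0.879, 0.895, 0.996, 0.895 and 0.812 (n = 9). The libraries share groups, animals and depth, so these correlations are a description only. SLC2A4, the insulin-responsive glucose transporter GLUT4 of muscle and fat, followed the order of CCK most closely. It read 3.06, 4.04 and 1.92 RPKM in healthy libraries, 1.36, 2.29 and 0.514 in the border zone and 0.226, 1.27 and 0.182 in ischemic tissue. Like CCK it was highest in pig 2 in every group. These 5 were picked for following CCK, which was chosen for its low ischemic values, so lower ischemic levels were built into the choice. Their differences between ischemic and healthy tissue are therefore given with no test. RRAGD, which encodes a Rag GTPase of amino acid sensing, stood at -2.64 on the log2 scale. ITGB6, an integrin subunit, stood at -2.56 and SLC2A4 at -2.57. ALAS1, the first enzyme of heme synthesis, stood at -0.84 and NDUFB8, of respiratory complex I, at -0.93.

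Of 18 receptors, sister hormone and processing genes listed, 7 were in the table, and CCKAR and CCKBR were among the 11 not analysed here. GAST, which encodes the sister hormone gastrin, and PCSK1, a prohormone convertase, had no read in any of the 9 libraries. Over the 9 libraries together that allows at most 0.0454 RPKM for GAST and 0.00237 for PCSK1. PCSK2, the other neuroendocrine convertase, reached at most 0.00798 RPKM in a library, its chaperone SCG5 0.0463 and the carboxypeptidase CPE 0.0630. CCK in its lowest healthy library, at 5.08 RPKM, stood far above each of these per kilobase of span.

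Both tyrosylprotein sulfotransferases, the Golgi enzymes that sulfate cholecystokinin and many other secreted proteins, rose in ischemic tissue. Of all tested positions 18.5% were called higher there and 5.79% in the border zone. TPST1 read 0.538, 0.505 and 0.432 RPKM in healthy libraries, 1.47, 1.18 and 1.94 in the border zone and 1.46, 1.54 and 1.97 in ischemic tissue. The healthy libraries lay below all others, and the border zone and ischemic values overlapped. TPST1 rose by a log2 difference of 1.56 ± 0.24 in ischemic tissue (adjusted p = 0.00307, limma) and of 1.44 ± 0.24 in the border zone (adjusted p = 0.0132). The border zone call was lost without healthy 2, healthy 3, border zone 1 or border zone 3 (adjusted p 0.0544 to 0.0632) and with quantile normalization (0.0591). TPST2 rose from 0.356, 0.457 and 0.496 RPKM to 1.24, 0.994 and 2.02 in ischemic tissue (log2 difference 1.45 ± 0.35, adjusted p = 0.0182). That call was lost without healthy 1, healthy 2 or ischemic 3 (adjusted p 0.0518 to 0.0534) and with quantile normalization (0.0617). In the border zone TPST2 had an adjusted p of 0.0936, which became 0.0358 with the pig as a block.

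Other hormones of gut and brain were near 0 in these hearts. Of 33 such peptides listed, 24 were in the table, 15 of these had no read in any library and 0 were abundant enough to test. The highest level in any library was 0.669 RPKM, for TRH, the precursor of thyrotropin-releasing hormone. POMC, the precursor of corticotropin, had the highest mean at 0.345 RPKM. Granins and vesicle proteins were low as well, with 5 of 12 in the table and no library above 0.388 RPKM (RAB3A).

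Few of the peptides that the heart and vessels are known for could be tested. Of 25 listed, 16 were in the table and 5 were tested, of which 1 rose and 0 fell in ischemic tissue, beside 18.5% and 9.1% of all tested positions (limma; 3 higher and 0 lower at an unadjusted p under 0.05, 2 higher and 0 lower with limma-voom). Both limma counts are near those shares, so they do not set these peptides apart from other positions. NPPA, atrial natriuretic peptide, read 1.98, 1.05 and 0.829 RPKM in healthy libraries, 9.66, 4.12 and 3.30 in the border zone and 8.46, 0 and 10.2 in ischemic tissue. Ischemic 2, the library in which CCK persisted, was the one with no NPPA read, and the ischemic difference did not pass (log2 difference 0.66 ± 1.61, adjusted p = 0.791, limma). Without ischemic 2 it was 2.85 with an adjusted p of 0.00726. NPPB, brain natriuretic peptide, read 0.249, 0 and 5.73 RPKM in healthy libraries, 12.8, 8.55 and 10.3 in the border zone and 7.66, 1.79 and 7.70 in ischemic tissue. Its differences of 3.04 ± 1.34 in ischemic tissue and 4.16 in the border zone did not pass (adjusted p 0.128 and 0.124) but did so without healthy 3 (0.00920 and 0.0104), and the border zone difference also passed with limma-voom (0.0139).

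ADM, the vasodilator adrenomedullin, rose from 2.71, 0.762 and 2.86 RPKM in healthy tissue to 9.58, 4.19 and 7.38 in ischemic tissue (log2 difference 1.81 ± 0.53, adjusted p = 0.0364, limma). The border zone lay between, at 6.12, 3.29 and 5.17 RPKM, and passed only with the pig as a block (adjusted p 0.0342 against 0.197). The ischemic ADM call was lost without healthy 2, border zone 1, border zone 3, ischemic 1 or ischemic 3 (adjusted p 0.0509 to 0.106), and in 3 other alternatives (no filter, quantile normalization and only the 2 groups, 0.0574 to 0.0727). EDN1, the constrictor endothelin, read 1.39, 1.70 and 0.652 RPKM in healthy and 2.37, 2.90 and 1.61 in ischemic libraries, a difference of 0.88 ± 0.36 that passed only with the pig as a block (adjusted p 0.0217 against 0.105). LEP, the leptin gene and the fifth tested, stood at 0.66 (adjusted p = 0.115, and 0.0103 with limma-voom), read over an annotated span of 725006 bp where the shortest of its 3 positions spans 4446 bp.

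**Figure D4:**
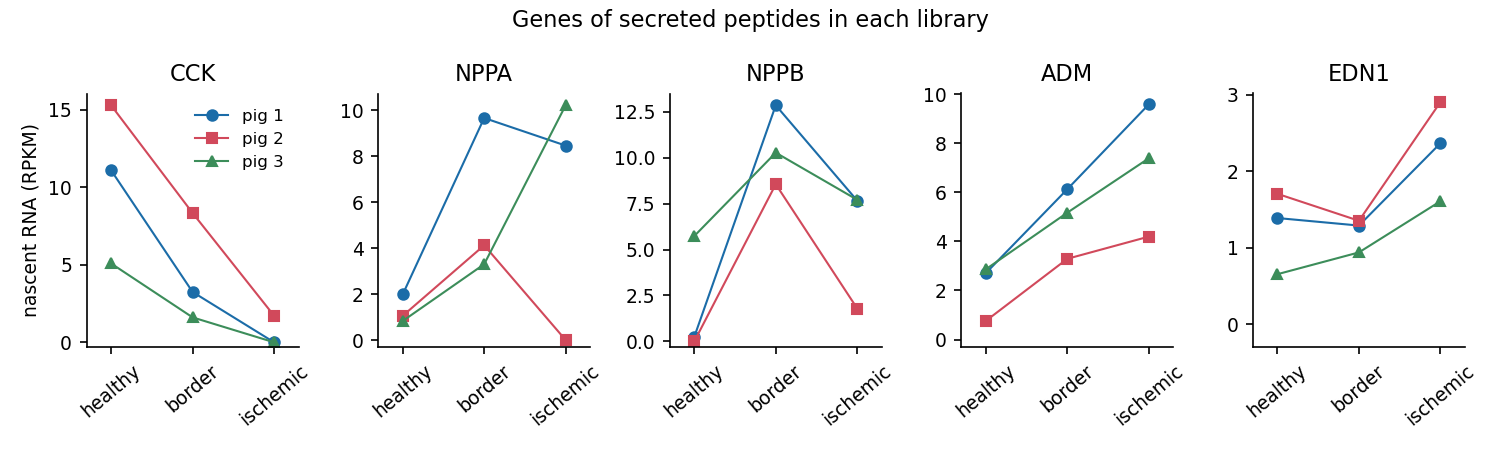
Level in RPKM, on a linear axis of its own for each gene, of CCK, NPPA, NPPB, ADM and EDN1 in each library, with lines joining the 3 zones of a pig. CCK is highest in healthy tissue, at 5.08 to 15.3 RPKM, and lowest in ischemic tissue, whereas ADM is highest in ischemic tissue, at 4.19 to 9.58 RPKM.

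Of 40 listed receptors for peptide hormones and their partner proteins, 29 were in the table and 9 were tested, of which 4 fell and 1 rose in ischemic tissue, beside 9.1% and 18.5% of all tested positions. EDNRA, the endothelin A receptor, fell from 5.13, 3.08 and 4.50 RPKM to 0.494, 1.19 and 0.469 (log2 difference -2.49 ± 0.36, adjusted p = 0.00263, limma), with no overlap between groups. RAMP1, a partner protein of the calcitonin-like receptor, fell from 3.28, 3.86 and 4.16 RPKM to 0.428, 1.14 and 0.111 (-2.89 ± 0.55, adjusted p = 0.00808). IGF1R, the receptor of insulin-like growth factor, fell by 1.71 on the log2 scale (adjusted p = 0.00330) and ADIPOR2, an adiponectin receptor, fell by 1.67 (adjusted p = 0.00296). These 4 calls held with limma-voom and with the pig as a block. EDNRB, the endothelin B receptor, rose by 1.21 ± 0.38 (adjusted p = 0.0445), a call lost with the pig as a block (0.0616), in 4 other alternatives (no filter, both scalings and only the 2 groups, at most 0.120) and without any of 6 libraries (healthy 1 or 3, border zone 1 or 2, ischemic 1 or 3, adjusted p 0.0600 to 0.121). CALCRL, NPR2, RAMP2 and ADIPOR1 did not pass, at log2 differences of 0.16, 0.19, -1.65 and -0.27 (adjusted p 0.635, 0.696, 0.284 and 0.629). RAMP2 passed without ischemic 1 (adjusted p 0.0159).

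Of the Gq and calcium pathway that cholecystokinin receptors use, 9 of 22 listed genes were in the table and 8 were tested, of which 2 rose and 2 fell in ischemic tissue, beside 18.5% and 9.1% of all tested positions. The 2 that rose are near that share. RGS2, which switches Gq off, rose from 4.06, 2.61 and 8.53 RPKM to 24.1, 22.4 and 29.6 (log2 difference 2.46 ± 0.49, adjusted p = 0.00967, limma), and it rose in the border zone to 16.8, 15.6 and 39.4 RPKM (2.25, adjusted p = 0.0375). The border zone call was lost without any of 7 libraries, all but healthy 3 and ischemic 2 (adjusted p 0.0514 to 0.140), and in 5 other alternatives (0.0566 to 0.0774). RGS4, a regulator of the same kind, rose by 1.15 ± 0.35 (adjusted p = 0.0403), a call lost when any library except healthy 1 or ischemic 3 was left out (0.0598 to 0.125) and in 4 other alternatives (0.0600 to 0.0879). CAMK2D, the main calcium-calmodulin kinase of the heart, fell from 5.86, 6.47 and 6.64 RPKM to 1.01, 1.98 and 1.11 (-2.19 ± 0.31, adjusted p = 0.00250). GNA11, a G protein of the Gq family, fell by 1.28 on the log2 scale (adjusted p = 0.0306), a call lost without any healthy library or without ischemic 2 or 3 (0.0505 to 0.112), and in 3 other alternatives (0.0511 to 0.0737). GNAQ at 0.51, PPP3CA at 0.62 and NFATC1 at -0.47 did not pass (adjusted p 0.176, 0.120 and 0.102). GNAQ and PPP3CA passed as higher with limma-voom (0.0336 and 0.0141), and NFATC1 as lower with median scaling (0.0260).

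Among cAMP-responsive and AP-1 factors, known to act on the CCK promoter in other cells, 5 of 22 listed genes were in the table and all 5 were tested. In ischemic tissue 2 rose and 1 fell, beside 18.5% and 9.1% of all tested positions. In the border zone 1 rose and 0 fell, beside 5.79% and 0.21%. FOS, a subunit of AP-1, read 7.29, 7.58 and 6.53 RPKM in healthy libraries, 74.1, 32.3 and 49.9 in the border zone and 75.0, 39.9 and 71.2 in ischemic tissue. It rose in both zones, by log2 differences of 3.05 ± 0.37 in ischemic tissue (adjusted p = 0.00141, limma) and 2.77 in the border zone (adjusted p = 0.00478), without overlap with the healthy libraries. ATF4, a stress-responsive factor, rose by 1.31 ± 0.37 in ischemic tissue (adjusted p = 0.0335), a call lost without healthy 3 or any ischemic library (0.0548 to 0.0986) and in 3 other alternatives (0.0508 to 0.235). PRKAR1A, a regulatory subunit of protein kinase A, fell by 1.19 (adjusted p = 0.00809). JUN at 0.17 and USF1 at 0.59 did not pass (adjusted p 0.704 and 0.0877).

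Over all 7 lists around CCK, 94 of 171 genes were in the table and 29 were tested, of which 8 rose and 7 fell in ischemic tissue, beside 18.5% and 9.1% of all tested positions. The count of 8 became 5 without healthy 2 or border zone 1 and 4 without ischemic 1 or ischemic 3. In the border zone 3 rose, FOS, RGS2 and TPST1, and 0 fell (limma; 6 higher and 4 lower at an unadjusted p under 0.05, 5 higher and 1 lower with limma-voom), beside 5.79% and 0.21% of all tested positions. With the pig as a block 5 rose there, ADM and TPST2 joining those 3, and 1 rose without healthy 2, border zone 1 or border zone 3. The ischemic and border zone contrasts share the healthy libraries.

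Of the 5 other genes in the table within 1 Mb, 3 were tested and 0 passed in either zone against healthy tissue (limma). The count was also 0 at an unadjusted p under 0.05 and with limma-voom. Of all tested positions 27.6% were called in ischemic tissue and 6.0% in the border zone. With 3 genes, a count of 0 does not show that the neighbourhood stayed unchanged. CTNNB1, which encodes beta-catenin and lies 943 kb below CCK, read 3.88 ± 0.350 RPKM in the healthy group, 3.33 ± 0.422 in the border zone and 3.12 ± 0.232 in the ischemic group (SD, n = 3 each; log2 difference ischemic against healthy -0.30, adjusted p = 0.275). SEC22C, a trafficking protein gene 139 kb above, averaged 0.549, 0.695 and 0.831 RPKM (0.51, adjusted p = 0.215). ACKR2, a chemokine-scavenging receptor 376 kb above, averaged 2.02, 1.92 and 2.60 RPKM with only 14 ischemic reads (-0.78, adjusted p = 0.729). VIPR1, a receptor of vasoactive intestinal peptide and the nearest of the 5 at 88.9 kb above, was too low to test, at means of 0.131, 0.0799 and 0.0459 RPKM, and CYP8B1 had no read.

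**Figure D5:**
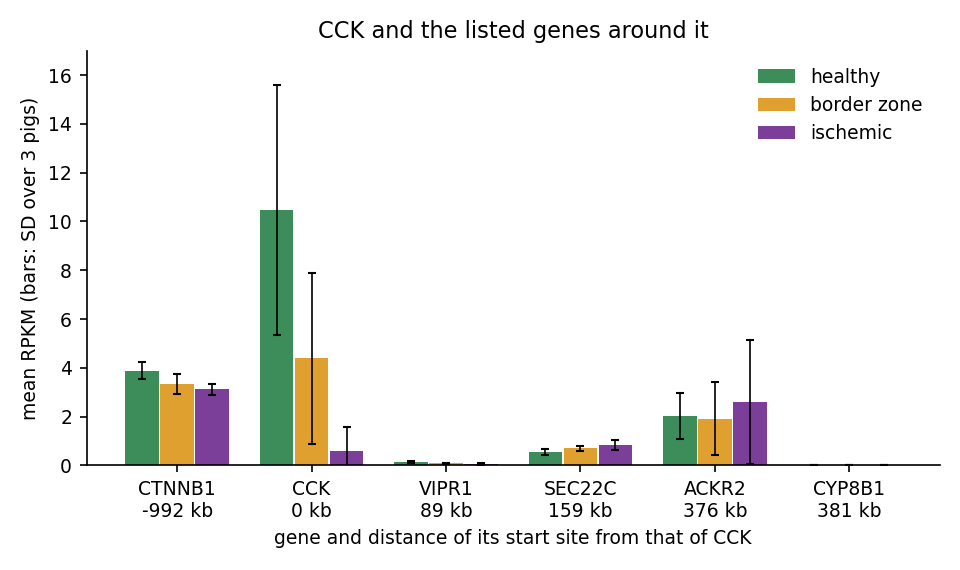
Mean RPKM by group, with error bars of 1 SD over 3 pigs, for CCK and the 5 other genes of the table within 1 Mb on chromosome 13, in order along it and labelled with the distance between start sites in kb. The CCK bars step from 10.5 to 4.40 to 0.571 RPKM, whereas CTNNB1, SEC22C and ACKR2 did not pass the test.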

How the data were processed

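GRO-seq libraries were made from 9 myocardial samples of 3 pigs. The authors deposited RPKM values per annotated position, which the submitters' processing notes tie to Bowtie and the susScr3 build. The sources used here do not give the versions or the counting program. RPKM multiplied by span and a library total gave whole reads for 100% of values (tolerance 0.01), and these gave the depths of 883656 to 7005976 reads. Small read counts were multiples of 3 in 32.8% to 53.2% of cases, against 33.3% for an even spread, so reads may not be independent molecules.

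Positions averaging at least 0.5 RPKM (2384 of 4882) were tested on log2(RPKM + 0.1) with limma 3.58.1 (trend, robust; R 4.3.3), 3 groups without covariates, Benjamini-Hochberg threshold 0.05, two-sided, after checks on simulated data. The longest position stood for each gene. Same-numbered libraries, by the numbers in the sample titles, were taken to come from the same pig. Their deviations from group means correlated at -0.04 to 0.18, an overlapping range beside -0.16 to 0.08 for libraries of different pigs. Alternatives were other pseudocounts, filters and scalings, the pig block, 2-group fits, limma-voom on recovered reads, the highest-mean position, and each library left out. Genes named were CCK, tested list genes, CCK processing genes in full, genes within 1 Mb, the 5 most alike and those ranked beside CCK. CCK and the lists were chosen with earlier results of these data known. Symbols came from RefSeq accessions (4793 of 4882 positions, Sscrofa11.1 table). The values of 1 tested list gene are not reported here.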

Additional observations from a re-analysis of the deposited data

How the results depend on the processing

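The CCK levels keep their order of groups when any 1 library is left out, with means of 8.09 to 13.2 RPKM in healthy tissue, 2.43 to 5.79 in the border zone and 0 to 0.856 in ischemic tissue. The fitted log2 difference of CCK between ischemic and healthy tissue moved from -5.20 to -7.42 with a pseudocount of 0.01 RPKM and to -2.93 with 1 RPKM, and lay between -6.59 and -4.50 with a library left out. Against the border zone it moved to -5.99 and -1.75, and lay between -5.19 and -3.10. The border zone difference stayed negative and did not pass the threshold in any of the 18 alternatives (limma, -2.01 to -0.86, adjusted p 0.217 to 0.817), with the pig as a replicate block at -1.40 (0.266).

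Of the 8 tested genes around CCK that rose in ischemic tissue, the count became 5 with no filter, 5 with a filter of 2 RPKM, 5 with libraries scaled to 1 median, 3 with quantile normalization and 4 with only the 2 groups compared, and ran from 4 to 7 with a library left out. The 7 that fell stayed between 5 and 9. In the border zone the 3 that rose became 1 with quantile normalization, 5 with the replicate block and 5 with limma-voom, and 1 to 4 with a library left out. The 0 that fell became 1 with only 2 groups, 1 with limma-voom and 0 to 1 with a library left out. The 8 cardiomyocyte markers became 5 with no filter, 4 with only 2 groups and 4 to 11 with a library left out, and the 7 leukocyte markers became 3 with a filter of 2 RPKM and 6 to 8. Among calls of marker genes, the replicate block added MYH7, TNNI3 and POSTN in ischemic tissue (adjusted p 0.0303, 0.0271 and 0.0206) and ATP2A2 in the border zone (0.0447), and lost CCR7 there (0.0514). Depth limits the ischemic CCK levels, since the 0 reads of ischemic 3 allow up to 0.663 RPKM at a limit of 3 reads.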
